A study of Mus musculus with 6 samples.

Results

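The ETS family is a family of transcription factors that share a DNA-binding domain and read a GGAA core. It includes PU.1, the factor on which the macrophage lineage depends and which is encoded by Spi1. This account describes histone H3 lysine 27 acetylation (H3K27ac) at 10 mouse ETS genes in alveolar macrophages (AMs), which patrol the air spaces of the lung and clear surfactant and debris. The genes were chosen by name from 21755 protein-coding genes: Spi1, Spib, Etv6, Etv3, Ets1, Ets2, Fli1, Elf1, Elf4 and Gabpa. All 10 were found in the GENCODE vM21 annotation of mm10, and every peak in the gene or within 50 kb of either end was assigned to it.

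The AMs were sorted from the airway lavage of adult wild-type C57BL/6J mice that carried no transgene and had received no treatment. H3K27ac was measured by HT-ChIPmentation, in which the transposase Tn5 adds sequencing adapters while the precipitated chromatin is still on the beads. There were 3 H3K27ac libraries, 1 made with an Active Motif antibody and 2 with a Cell Signaling antibody (replicates 1 and 2), and 3 inputs that entered only through the authors' peak calling. The lists held 36364, 56175 and 49139 peaks, in that order, which is also the order of the libraries wherever 3 values follow. The title of the Active Motif library names only H3, and it is taken as H3K27ac from the title of the series. Antibody cannot be told apart from any other difference between the Active Motif library and the Cell Signaling pair, depth included. Nothing in the labels ties the 2 replicates to different mice. Fold is the authors' enrichment over local background at the summit of a peak and is ranked here within a library only, and "no peak" says that the caller reported none there.

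H3K27ac is laid down by p300 and CBP at the nucleosomes that flank active promoters and enhancers, so a peak marks a stretch of chromatin in use and not the binding of a given factor. PU.1 opens myeloid enhancers together with CEBP, RUNX and IRF factors and maintains its own gene through an element upstream of the promoter. The other members include broadly expressed activators (Gabpa, Elf1, Elf4, Ets2), factors of lymphocytes and endothelium (Ets1, Fli1), a B-cell and plasmacytoid dendritic cell relative of PU.1 (Spib) and the repressors Etv6 and Etv3.

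The identity of the cells was checked at lists of marker genes. All 10 AM markers, Siglecf, Marco, Pparg and Fabp4 among them, had a promoter peak in each library. Over all protein-coding genes 40.8% had one in all 3 libraries and 49.8% had none in any. None of the 9 T and NK cell markers had one in all 3 libraries, and 8 had none in any. Of 8 endothelial markers 6 had none in any library, and Pecam1, which macrophages also express, had one in all 3. Vwf had a 38.8-fold promoter peak in replicate 2 only, whose summit need not lie at the start. The Vwf gene and 50 kb either side were covered by peaks over 31.9, 39.7 and 44.9 kb. Of the 8 B-cell markers only Cd22 had a peak in each library, and Ms4a1 had 4.18-fold and 41.2-fold in the Cell Signaling replicates only. Of the 7 dendritic cell markers Xcr1, Clec9a and Bst2 had a peak in each library, with 3.43-fold, 41.9-fold and 30.9-fold at Clec9a. Whether other cells gave any of these peaks was not tested. Airway epithelial markers had promoter peaks in 1, 7 and 1 of 8 genes and alveolar epithelial markers in 0, 5 and 1 of 9, so epithelial genes stood out in Cell Signaling replicate 1. Apart from Tppp3, which had a peak in all 3, those airway peaks of replicate 1 were weak, from 4.61-fold at Cyp2f2 to 8.07-fold at Scgb3a2. The alveolar ones ranged from 4.23-fold at Sftpd to 6.92-fold at Nkx2-1. Peaks covered 0, 11.5 and 0 kb of the Nkx2-1 gene and 50 kb either side. At Sftpc, in contrast, they covered 0.51, 3.52 and 5.57 kb, the most in replicate 2.

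A promoter peak was one that reached within 1 kb of the start of a protein-coding transcript, and its summit may lie further off. Promoter peaks were found at 8, 8 and 9 of the 10 ETS genes, where 40.9%, 47.9% and 48.9% of all protein-coding genes had one. All 3 libraries marked the same 8 promoters, those of Spi1, Etv6, Etv3, Ets2, Fli1, Elf1, Elf4 and Gabpa, beside 40.8% of all genes. Spib had no promoter peak in any library, as did 49.8% of all genes. Ets1 had one only in Cell Signaling replicate 2. No test of the difference from other genes was made, since the members were chosen by name with earlier results of these data known.

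Elf1 and Spi1 had the strongest promoters of the members in the Active Motif library and replicate 2, and Elf1 and Etv6, followed by Spi1, in replicate 1. At Elf1, which encodes an activator of haematopoietic genes, the strongest promoter peak was 38.3-fold, 53.4-fold and 50.6-fold, the highest of the members in the first pair of libraries. At Spi1 it was 30.0-fold, 44.6-fold and 54.4-fold, the highest of the members in replicate 2. Etv6, a repressor needed by blood stem cells, had 15.4-fold, 51.9-fold and 45.8-fold. By −log10 q the Spi1 promoter stood at the 95.7th, 88.0th and 98.6th percentile of the genes that had a promoter peak in the same library, and Elf1 at the 99.2nd, 94.0th and 96.0th. The Etv6 percentiles were 75.1, 93.2 and 90, so its place was lower in the Active Motif library.

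Ets2 and Gabpa kept middle places in each library, with Ets2 above Etv6 in the Active Motif library. Fli1 came after Gabpa in each library, and in replicate 1 it was the lowest of the 8. Ets2, a target of growth factor signalling through ERK, had 16.8-fold, 42.3-fold and 39.1-fold. Gabpa, the DNA-binding subunit of GABP, which serves housekeeping and mitochondrial genes, had 15.3-fold, 28.1-fold and 36.4-fold. The medians over all genes with a promoter peak were 11.1-fold, 19.2-fold and 26.9-fold, and both genes lay above them in each library. Fli1, which acts in megakaryocytes, endothelium and lymphoid cells, had 14.1-fold, 18.8-fold and 35.3-fold and fell just below the median in replicate 1. Altogether 6 of 8, 7 of 8 and 6 of 9 marked members lay above the median of their library.

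Etv3 and Elf4 were the weakest of the 8 in the Active Motif library and replicate 2, and Fli1 was the weakest in replicate 1. Etv3, a repressor that is induced as macrophages stop dividing, had 9.21-fold, 21.9-fold and 26.7-fold. Elf4, which limits proliferation of T cells and takes part in the interferon response, had 8.95-fold, 27.3-fold and 16.2-fold. Its percentile by −log10 q in replicate 2 was 37.6, and 23.9 when ranked by fold. The lone Ets1 promoter peak was 5.06-fold and 82 bp wide, and its percentile among promoter peaks was 1.65.

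**Figure D1:**
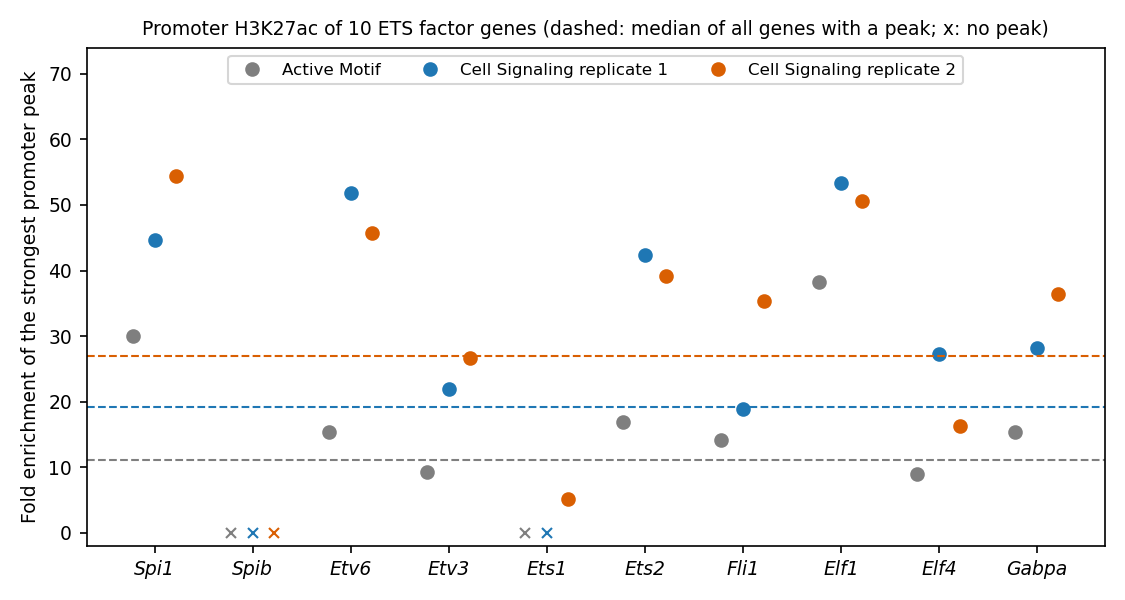
Fold enrichment (vertical axis) of the strongest promoter peak at each of the 10 genes (horizontal axis), 1 point for each library, with a cross at 0 where no peak was called and dashed lines at the median of all genes with a promoter peak. Spib has crosses in all 3 libraries and Ets1 in 2, while Elf1 and Spi1 stand at 30.0-fold or more in each.

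CpG content did not order these promoters. The number of CpG dinucleotides in the 1 kb centred on a start was 18 at Spi1 and 7 at Spib, against a median of 47.0 over all genes, when the start with the most was taken for each gene. Among genes with 16 to 47 CpGs, the group that holds Spi1, 29.3% had a promoter peak in all 3 libraries, and among genes with at most 15, which include Spib, 5.33% had one. Ets1 had 89 CpGs in the 1 kb around a start, within the group of 76 or more in which 66.0% of genes were marked in all 3 libraries, and it was not marked in 2 of them. Spi1 was therefore marked where most genes of like CpG content were not, and Ets1 was the reverse.

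Alternative starts of 1 gene also differed. Elf1 has an outer start, in a promoter shared with its neighbour Wbp4, and inner starts 34.5 kb further on. The outer one had 138 CpGs in 1 kb and peaks of 14.5-fold, 27.3-fold and 34.2-fold. The inner ones had 15 CpGs and the strongest acetylation of the gene, 38.3-fold, 53.4-fold and 50.6-fold, under a region 8.93 kb long. At Elf4, which lies on the X chromosome, the outer start had 43 CpGs and no peak in any library, and the inner start, 8.96 kb downstream, had 118 CpGs and carried all the promoter signal. When only the annotated 5′ end of each gene was used, the Elf4 promoter was thus lost and 7 members were marked in all 3 libraries. Spi1 was then marked through a peak at its annotated 5′ end, 13.7 kb from its coding start.

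**Figure D2:**
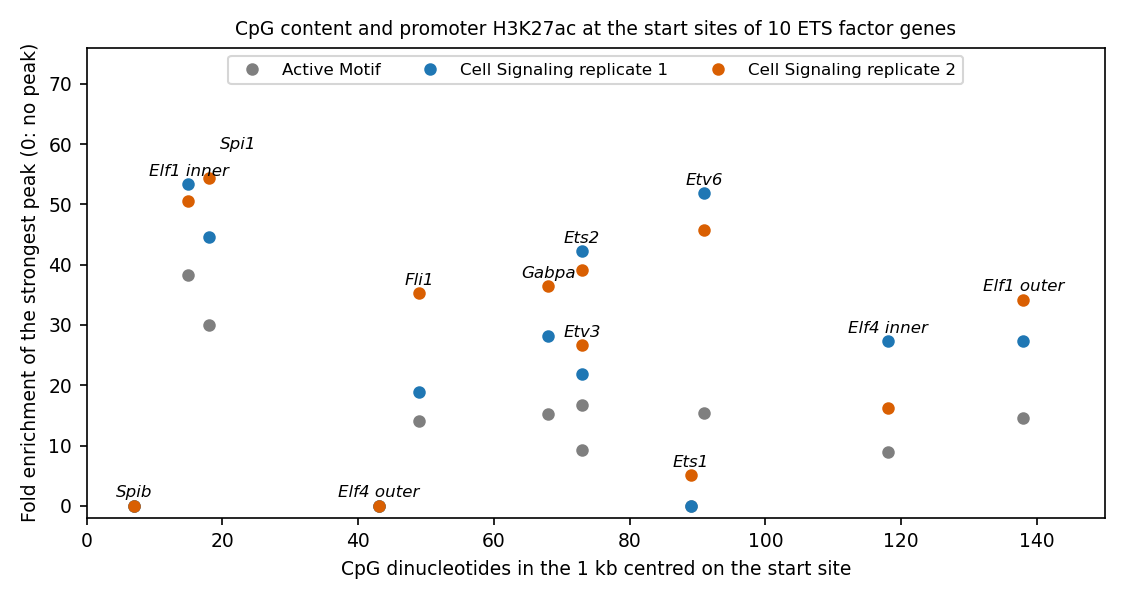
Fold enrichment of the strongest peak within 1 kb of a start site (vertical axis) against the number of CpGs in the 1 kb centred on it (horizontal axis), for the starts of the 10 genes, with neighbouring starts under the same peaks drawn once. Points at 0 had no peak, and points that coincide there hide each other. The inner Elf1 start and Spi1 sit at 15 and 18 CpGs with folds of 30.0 or more, and Ets1 sits at 89 with 0 or 5.06.

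The contrast can be read in the bases before these starts, taken from RefSeq (GRCm38.p6), which held 7 of the 10 members. Spi1, Ets1 and Fli1 had no entry. The 250 bases before a start are written below 5′ to 3′ on the strand of the gene, with each CpG in capitals, for the start with no peak at Spib, the marked start of Etv6, the inner marked start of Elf1, and both starts of Elf4. They hold 2, 16, 2, 11 (outer) and 23 (inner) CpGs.
Spib, chr7:44532072-44532321, minus strand: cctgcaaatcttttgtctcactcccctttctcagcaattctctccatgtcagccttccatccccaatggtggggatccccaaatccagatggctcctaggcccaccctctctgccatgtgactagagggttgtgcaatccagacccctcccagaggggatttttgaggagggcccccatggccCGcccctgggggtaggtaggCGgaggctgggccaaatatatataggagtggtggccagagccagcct
Etv6, chr6:134035450-134035699, plus strand: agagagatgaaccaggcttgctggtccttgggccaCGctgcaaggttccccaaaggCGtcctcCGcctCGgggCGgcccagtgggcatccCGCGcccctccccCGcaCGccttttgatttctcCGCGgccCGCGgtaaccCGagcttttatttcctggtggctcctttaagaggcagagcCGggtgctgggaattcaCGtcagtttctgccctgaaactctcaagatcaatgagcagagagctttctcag
Elf1 inner, chr14:79515424-79515673, plus strand: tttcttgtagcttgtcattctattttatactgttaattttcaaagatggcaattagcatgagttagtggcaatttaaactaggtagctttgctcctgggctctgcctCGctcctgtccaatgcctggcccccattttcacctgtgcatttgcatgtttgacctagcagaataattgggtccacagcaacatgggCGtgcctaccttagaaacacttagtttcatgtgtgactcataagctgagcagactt
Elf4 outer, chrX:48463133-48463382, minus strand: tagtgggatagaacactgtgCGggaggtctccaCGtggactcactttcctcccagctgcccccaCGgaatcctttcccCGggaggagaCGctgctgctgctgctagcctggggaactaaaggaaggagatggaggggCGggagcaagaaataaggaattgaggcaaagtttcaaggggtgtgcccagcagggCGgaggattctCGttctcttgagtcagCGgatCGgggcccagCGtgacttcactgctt
Elf4 inner, chrX:48454320-48454569, minus strand: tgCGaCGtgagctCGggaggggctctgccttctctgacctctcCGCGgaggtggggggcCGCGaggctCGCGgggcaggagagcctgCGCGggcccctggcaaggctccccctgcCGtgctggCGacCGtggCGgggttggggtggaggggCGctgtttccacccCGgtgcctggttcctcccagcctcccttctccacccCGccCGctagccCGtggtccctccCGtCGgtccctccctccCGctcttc
Of the 9 member promoters in that table (300 bases each), 1 held the PU.1 site GAGGAAGT on either strand, that of Gabpa, where 3.2% of all 32851 promoters did. None held the site CCGGAAGT preferred by Ets1, Ets2, Fli1, Elf1, Elf4 and Gabpa, where 3.89% of all did. The short site GGAAGT, which overlaps both, was found in 3 of the 9 and in 23.8% of all promoters. These windows are short and leave out 3 members. In the acetylated promoter regions themselves, a CCGGAAGT site lay 0.067 kb upstream of the nearest Gabpa start, outside the RefSeq window, and PU.1 sites lay 0.007 kb upstream of the Spi1 start and 0.133 kb downstream of that of Fli1.

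Acetylation was spread very unevenly between the loci. The members' windows held 108, 167 and 135 peaks, or 0.297%, 0.297% and 0.275% of each list. These covered 80.75, 141.1 and 184.3 kb. Spi1 and Etv6 together accounted for 54.8%, 56.7% and 57.8% of that length. A peak somewhere in the window was found in all 3 libraries at 9 of the 10 genes, all but Ets1, where 67.7% of all genes had one.

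Etv6 had the greatest length under peaks of the members, summed over many separate peaks. It was covered over 22.8, 52.2 and 71.0 kb, against medians over all genes of 1.44, 2.87 and 3.72 kb. This placed it 197th, 35th and 28th of 21755 genes, although windows of long genes are longer and the gene itself spans 234 kb. Spi1, whose gene spans 33.4 kb, was covered over 21.5, 27.8 and 35.5 kb, at the 98.8th, 98.2nd and 98.3rd percentile. Elf1 had 16.9, 24.4 and 30.6 kb, at percentiles of 97.7, 97.3 and 97.2. These 3 genes kept the leading places in each library. Spi1 peaks filled 16.1%, 20.8% and 26.6% of the Spi1 window, and Etv6 peaks 6.82%, 15.6% and 21.2% of theirs. At q at or below 1e-05 Spi1 led Etv6 in the Active Motif library, with 21.1 against 19.4 kb.

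Fli1 had 6.04, 11.5 and 14 kb. Elf4 had 3.34, 8.05 and 14.8 kb, more than Fli1 in replicate 2 only, and Ets2 4.55, 6.69 and 5.42 kb. Etv3 (2.21, 4.52 and 5.28 kb), Spib (2.01, 3.45 and 5.14 kb) and Gabpa (1.47, 2.54 and 2.47 kb) lay near the median gene. Ets1 was covered over 0, 0 and 0.082 kb, and 32.3%, 24.5% and 25.4% of all genes had no peak in their window at all.

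**Figure D3:**
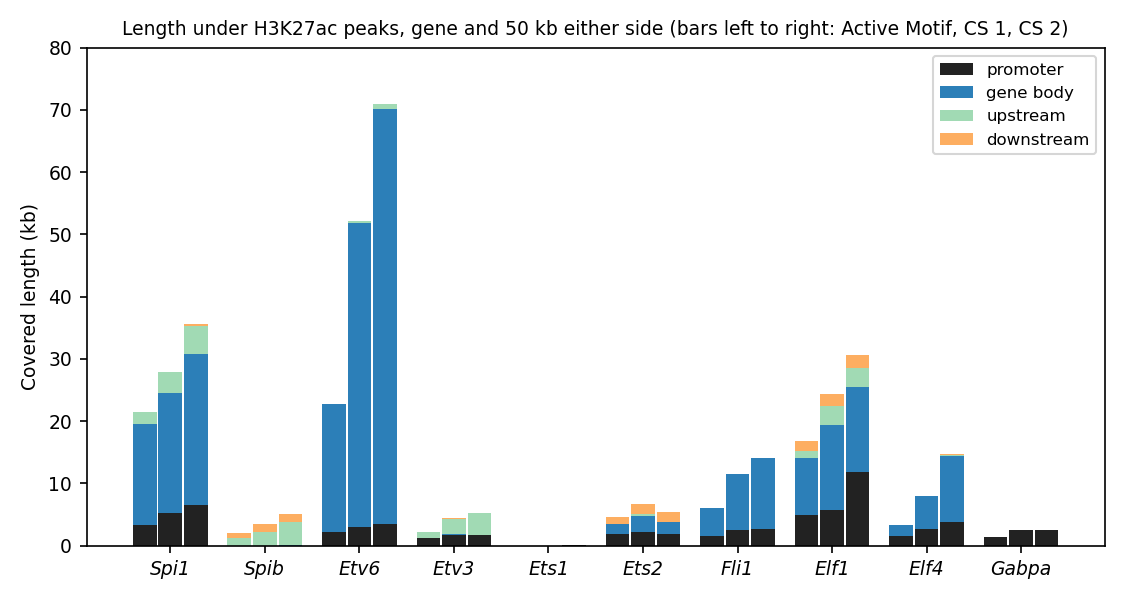
Length under peaks (kb, vertical axis) in each gene and 50 kb either side, stacked by promoter, gene body, upstream and downstream flank, with 3 bars a gene for Active Motif, Cell Signaling replicate 1 (CS 1) and replicate 2 (CS 2). Etv6 reaches 71.0 kb, of which 66.7 kb in the gene body, and Ets1 is at most 0.082 kb.

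A shared region was defined as a merged stretch of Cell Signaling peaks that held a peak of both replicates. In the members' windows 145 of 167 replicate 1 peaks had a replicate 2 partner (86.8%, 95% Wilson interval 80.9 to 91.1%), against 82.1% of the whole list. In the other direction 89 of 135 did (65.9%, 57.6 to 73.4%), against 61.9%. The peaks without a partner had median folds of 4.04 in replicate 1 and 4.51 in replicate 2, against 5.79 and 12.6 for those with one. The gap was thus small in replicate 1. Of 108 Active Motif peaks 107 lay in a shared region, and 52 of 86 shared regions (60.5%, 49.9 to 70.1%) held an Active Motif peak, where 61.5% of all shared regions did. These intervals cover counting error over peaks only, and neighbouring peaks of a locus are not independent.

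Away from their own promoters, 8 of the 10 genes had at least 1 shared region, all but Ets1 and Gabpa, where 67.6% of all genes had one. There were 77 such regions. Of these, 58 lay in the gene body and 19 in a flank, 10 of the latter in another gene or at its promoter. An Active Motif peak was present in 43. Etv6 had 36, Elf1 15, Elf4 6, Spi1 and Spib 5 each, Fli1 4, and Etv3 and Ets2 3 each. The median was 4.5 over the members and 2 over all genes, and the nearest protein-coding start belonged to the member for 54 of the 77.

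Spi1 was marked in 3 blocks. The first was a shared region of 13.5 kb (chr2:91080001-91093469, mm10) that began upstream of the annotated 5′ end of the gene and ran into an intron. Its folds were 24.7, 55.4 and 36.2, and the summits lay 14.45, 13.41 and 13.61 kb upstream of the only protein-coding start used (chr2:91096096). The upstream regulatory element of PU.1 is known from this stretch. The annotated 5′ end of the gene (chr2:91082390), where no protein-coding transcript starts, lies in it too, near the summits at 91081649, 91082684 and 91082485. Acetylation of the element and of a start at that end cannot be told apart here. In replicate 1 the peak of this block was stronger than the promoter, whereas in the Active Motif library and replicate 2 the promoter was the stronger.

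The second block, 6.57 kb long, covered the Spi1 promoter. The third, 7.53 kb long and centred 14.3 kb downstream of the start, lay in the gene body with folds of 12.6, 25 and 15.8. The protein-coding start nearest to its centre was that of Mybpc3. A weaker intronic region 8.73 kb downstream had 3.03-fold and 3.57-fold peaks in the Cell Signaling replicates only. The other pair of regions belonged to neighbours, at the promoters of Psmc3 (10.4-fold, 22.7-fold and 19.9-fold) and Slc39a13 (8.17-fold, 13.8-fold and 27.8-fold). Downstream of Spi1 a single 3.93-fold peak within Mybpc3 was called in replicate 2 alone.

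**Figure D4:**
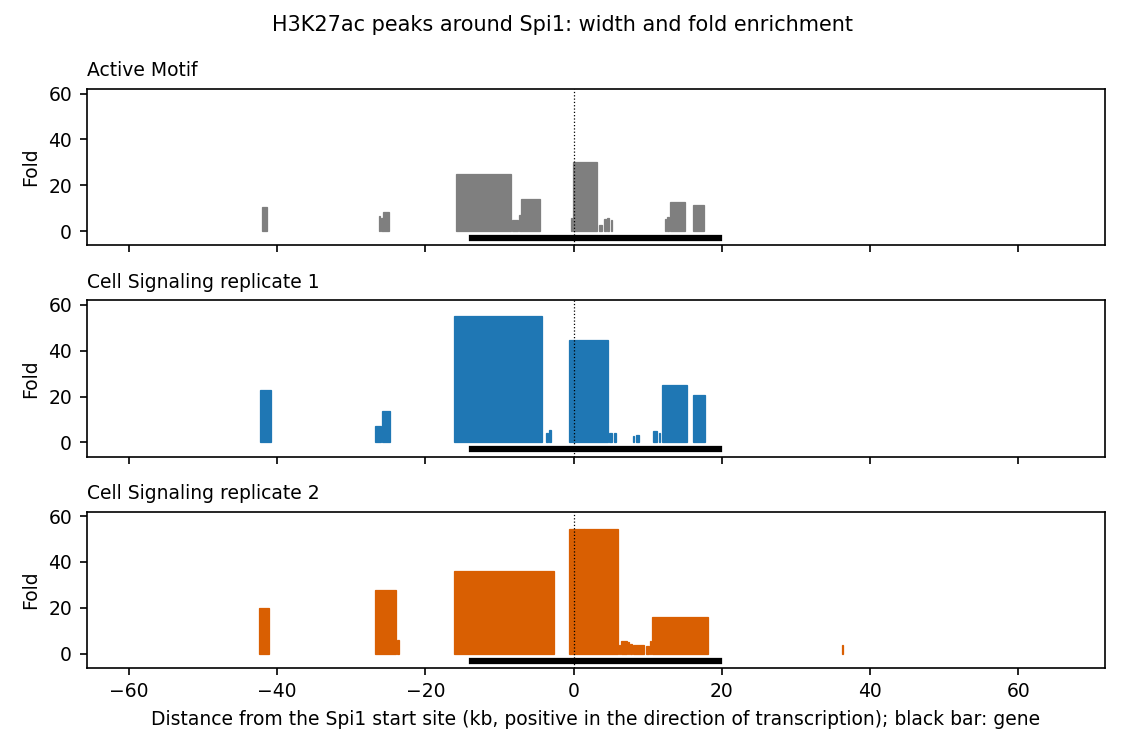
Peaks around Spi1 in the 3 libraries, drawn as boxes whose width is the peak and whose height is its fold enrichment (vertical axis), against distance from the start site in kb (horizontal axis). The black bar is the annotated gene, and the upstream block, promoter block and downstream gene-body block appear in each library.

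The upstream Spi1 block is shown by sequence because it holds the strongest replicate 1 peak of the gene. The 300 bases around that summit (chr2:91082534-91082833, GRCm38.p6, plus strand) lie in no annotated exon and match none of the 8 short motifs searched.
Spi1 upstream summit: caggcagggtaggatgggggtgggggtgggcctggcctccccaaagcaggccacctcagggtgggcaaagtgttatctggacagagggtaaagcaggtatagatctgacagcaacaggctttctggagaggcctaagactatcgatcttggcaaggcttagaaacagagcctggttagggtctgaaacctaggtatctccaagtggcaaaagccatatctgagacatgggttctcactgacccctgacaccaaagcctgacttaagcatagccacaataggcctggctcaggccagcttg
The PU.1 site GAGGAAGT occurred 2 times elsewhere in the same 13.5 kb block, 15.1 and 6.85 kb upstream of the start. Each is shown in capitals within 40 bases of the plus strand.
Spi1, chr2:91080962-91081001: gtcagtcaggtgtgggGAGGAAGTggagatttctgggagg
Spi1, chr2:91089234-91089273: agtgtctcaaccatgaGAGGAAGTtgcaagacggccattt
A further copy stood in the promoter block, and no copy was found in the others. A match of letters is not evidence of binding, which these data do not measure.

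Etv6 carried acetylated regions along most of its length. Of its 34 shared regions in the gene body 19 also had an Active Motif peak. The 15 without one had at most 10.8-fold in replicate 1 and 14.6-fold in replicate 2. Away from the promoter 7 regions exceeded 20-fold in both replicates. The strongest was 4.23 kb long and centred 136.74 kb into the gene (chr6:134170326-134174551), with 24.7-fold, 50.7-fold and 47.1-fold. In the Active Motif library and replicate 2 it exceeded the Etv6 promoter itself, at 15.4-fold and 45.8-fold. Others of this group lay 30.83 kb (15.1-fold, 35.0-fold and 36.4-fold) and 84.64 kb (16.8-fold, 39.2-fold and 36.4-fold) from the start, all of them in introns.

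**Figure D5:**
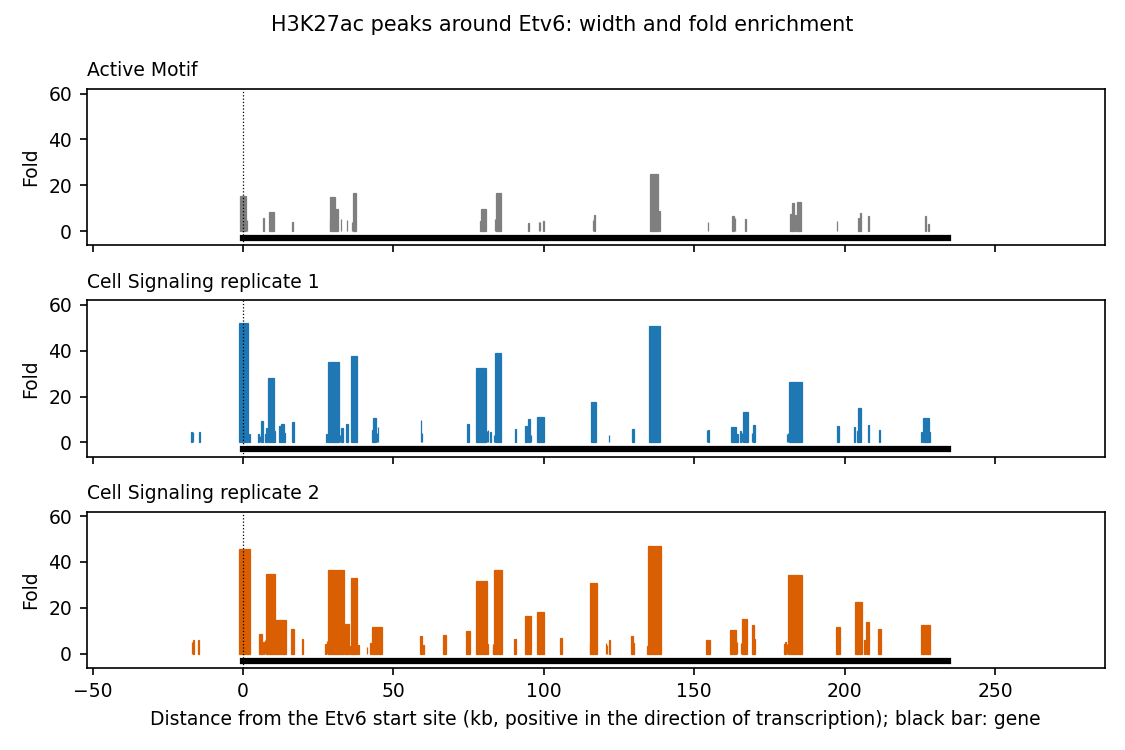
Peaks around Etv6 in the 3 libraries, as boxes with the width of the peak and the height of its fold enrichment (vertical axis), against distance from the start site in kb (horizontal axis), with the gene as a black bar. Peaks recur at the same positions, and the tallest away from the promoter is the one centred at 136.74 kb in each library.

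The replicate 1 summit of the strongest intronic Etv6 region, 200 bases on the plus strand (chr6:134171722-134171921), overlaps the non-coding gene Gm17088. It held a CEBP site (TTGCNNAA) and the nuclear receptor motif AGGTCA, in capitals, which were present in 9.51% and 12.7% of all 200 bp summit windows of replicate 1.
Etv6 intronic summit: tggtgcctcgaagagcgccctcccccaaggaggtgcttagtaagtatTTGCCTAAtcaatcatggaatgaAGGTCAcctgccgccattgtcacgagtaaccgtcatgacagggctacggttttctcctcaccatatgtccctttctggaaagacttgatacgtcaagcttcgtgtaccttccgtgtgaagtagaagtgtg
The same region held 2 PU.1 sites and 1 CCGGAAGT site a little further downstream, again shown in 40 bases of the plus strand.
Etv6, chr6:134172753-134172792: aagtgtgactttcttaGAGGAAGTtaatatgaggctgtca
Etv6, chr6:134173415-134173454: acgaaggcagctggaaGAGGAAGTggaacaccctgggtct
Etv6, chr6:134173633-134173672: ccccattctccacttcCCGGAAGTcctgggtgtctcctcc

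Ets2 had 1 strong element outside the promoter, and the strongest one at Etv3 was of about the strength of the Etv3 promoter. In an intron of Ets2, centred 6.66 kb from the start (chr16:95707781-95709683), folds were 28.2, 56.9 and 41.2, above those of its promoter in each library. A weaker element lay 27.02 kb from the start, beyond the end of the gene, with 7.11-fold, 20.8-fold and 21.6-fold. At Etv3 an intergenic region 9.54 kb upstream (chr3:87515101-87516632) had 7.19-fold, 22.7-fold and 25.4-fold, close to its promoter in each library. The Ets2 summit (200 bases, plus strand, chr16:95708661-95708860) held a CEBP site and an AP-1 site (TGANTCA), and the Etv3 region held a CCGGAAGT site, all in capitals. The AP-1 site was present in 7.38% of all summit windows of replicate 1.
Ets2 intronic summit: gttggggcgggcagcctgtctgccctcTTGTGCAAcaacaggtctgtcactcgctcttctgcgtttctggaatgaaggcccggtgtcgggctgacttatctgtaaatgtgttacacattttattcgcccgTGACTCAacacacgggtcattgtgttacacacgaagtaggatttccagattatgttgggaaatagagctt
Etv3 upstream, chr3:87515702-87515741: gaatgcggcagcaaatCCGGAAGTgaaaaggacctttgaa

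Elf1 had 11 shared regions in its gene body besides its promoters. The strongest of them, centred 33.81 kb from the inner starts (chr14:79548054-79550934), had 12.4-fold, 35.0-fold and 32.6-fold. Another, 17.46 kb from them, had 10.2-fold, 14.6-fold and 21.8-fold. Downstream of the gene the promoter of Sugt1 had 29.8-fold, 66.9-fold and 53.5-fold, above the Elf1 promoter in the Cell Signaling replicates and below it in the Active Motif library. The 2 PU.1 sites in Elf1 regions lay on opposite strands, 26.1 and 35.0 kb from the inner starts. The first was in a 0.241 kb region with 4.23-fold and 5.97-fold in the Cell Signaling replicates and no Active Motif peak. Whether the pair belongs to a repeat was not tested. Both sites shared 28 bases, written here on the strand that reads GAGGAAGT.
Elf1 shared stretch: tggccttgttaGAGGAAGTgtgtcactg

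Fli1 and Ets1 lie next to each other on chromosome 9, with 93.4 kb between their facing ends. Fli1 had 4 shared regions, 20.59 to 40.13 kb into the gene, and each had an Active Motif peak. The strongest in the Active Motif library, 32.18 kb in, had 11.9-fold, 10.1-fold and 15.5-fold, and the region 25.15 kb in, the strongest in replicate 2, had 5.54-fold, 10.8-fold and 22.1-fold. The strongest in replicate 1, 40.13 kb in, had 6.87-fold, 17.3-fold and 18.8-fold. Ets1 had no shared region, and its annotated 5′ end, 59.8 kb upstream of the starts of its coding transcripts, had no peak. The windows of the pair overlapped by 6.64 kb, in which no library had a peak.

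Elf4 had 5 shared regions in its gene body, the strongest 29.45 kb in with 8.52-fold, 17.3-fold and 19.7-fold. An Active Motif peak was present in only 2 of its 6 regions away from the promoter. The remaining one was at the promoter of Aifm1, close to the edge of the window. Gabpa, in contrast, had a single shared region, the 2.51 kb that cover its own promoter and that of Atp5j, and folds of the pair cannot be separated.

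All 5 shared regions near Spib lay at the promoters of other genes, among them Pold1, Napsa and Emc10. The strongest was that of Nr1h2, which encodes the sterol receptor LXRβ, with 19.6-fold, 49.97-fold and 43.0-fold, centred 21.89 kb upstream of Spib. Within the Spib gene the only peak was 0.136 kb wide, 4.86-fold, and found in replicate 2 alone. The Nr1h2 region held 5 of the 9 CCGGAAGT sites in the members' shared regions, with each strand counted. Of the 5, 2 overlap each other on opposite strands as a palindrome, which is not printed here. The stretch outside annotated exons (chr7:44553971-44554065, plus strand) has the other 3 sites, in capitals on either strand.
Nr1h2 promoter: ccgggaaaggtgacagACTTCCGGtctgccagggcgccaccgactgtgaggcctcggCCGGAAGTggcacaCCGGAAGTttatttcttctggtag

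The frequency of ETS sites was set beside that of the whole lists. In 200 bp centred on the summit, the short site GGAAGT was found in 12%, 15.6% and 11.9% of the members' windows (95% Wilson intervals 7.17 to 19.5%, 10.9 to 21.8% and 7.43 to 18.4%) and in 15%, 19.2% and 16.2% of all windows, values that lie inside those intervals. The PU.1 site was found in 0 of 108, 4 of 167 and 1 of 135 windows, against 1.89%, 3.16% and 2.31% of all, and the upper Wilson bound for the count of 0 was 3.43%. Over whole shared regions the PU.1 site occurred 18 times in 178 kb, or 0.101 per kb, and 0.128 per kb over all 56.8 Mb of shared regions. The site CCGGAAGT occurred 9 times, or 0.0505 per kb, and 0.0399 per kb overall. Palindromes such as that at Nr1h2 were counted on each strand in both densities. By gene the PU.1 sites fell 6 at Etv6, 4 at Fli1, 3 at Spi1, 2 each at Elf1 and Elf4, and 1 at Gabpa.

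Of the other 16 ETS genes 4, 8 and 6 had a marked promoter, beside 40.9%, 47.9% and 48.9% of all genes. Erf, a repressor under ERK control, Elf2, Elk1 and Elk4 were marked in all 3 libraries. Erf had 14.1-fold, 19.2-fold and 32.0-fold, and Elk4, a partner of the serum response factor, 20-fold, 42.3-fold and 40.1-fold. Erg, Fev, Elf3, Elf5, Etv2, Etv4 and Spic had no promoter peak in any library. Spic is the ETS factor of iron-recycling macrophages of the spleen and marrow. Elk3 was marked in the Cell Signaling replicates only (5.77-fold and 13.1-fold), and Etv5 in replicate 2 only (4.69-fold). Ehf (8.07-fold), Etv1 (6.53-fold) and Spdef (4.23-fold) were marked in replicate 1 only. Ehf and Spdef are factors of epithelium, and replicate 1 was also the library with 7 of 8 airway and 5 of 9 alveolar epithelial markers, as given above. Whether epithelial chromatin took part in these 3 peaks was not tested.

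Of 12 partners and cofactors of ETS proteins, 11 were marked in all 3 libraries, beside 40.8% of all genes. Cebpa had 26.0-fold, 46.1-fold and 39.2-fold and Runx1 22.6-fold, 46.9-fold and 45.1-fold. Irf8, an IRF that binds DNA together with PU.1, had 15-fold, 21.5-fold and 27.1-fold. Irf4, its relative, was marked in replicate 2 only (5.97-fold). Gabpb1 and Gabpb2, which encode the activating subunit that pairs with Gabpa, were both marked, at 29.4-fold, 56.1-fold and 50.2-fold and at 21.7-fold, 46.5-fold and 48.0-fold.

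Of 22 textbook target genes of PU.1, 20 were marked in all 3 libraries, again beside 40.8% of all genes. Csf2ra, a chain of the GM-CSF receptor, had 31.4-fold, 65.0-fold and 40.3-fold, and Csf1r, the M-CSF receptor, had 7.84-fold, 46.9-fold and 30.3-fold. Itgam, which encodes CD11b, a surface integrin low on mature AMs, had no Active Motif promoter peak and 8.46-fold and 7.99-fold in the replicates. Aif1 had none in any library. These counts describe the lists, which were drawn up with earlier results of these data known.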

How the data were processed

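HT-ChIPmentation of H3K27ac in sorted AMs gave 3 deposited peak lists, 1 for each library, and replicates were not pooled. The authors removed adapters (Cutadapt), aligned to mm10 (Bowtie2), marked duplicates (Picard), dropped low-quality alignments (samtools) and called peaks against input (MACS3). The processing notes of the submitters also list bcl2fastq 2.20.0.422, for the Cell Signaling pair. The deposited values used were the fold enrichment (a ratio to local background), the −log10 of the q-value and the summit offset. The authors' lists also hold the −log10 of the p-value and a score derived from q, which were not used. The lists hold no read counts, so read depth was not used, and weak peaks pass more easily where sequencing is deeper. Intervals allow for counting error over peaks alone.

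Coordinates are counted from 1 on mm10 (GRCm38), on the 19 autosomes and X. Genes were the 21755 protein-coding genes of the GENCODE vM21 basic annotation, with 41220 start positions of protein-coding transcripts. Each peak in a member's window had 1 class, in the order promoter (within 1 kb of a start), gene body, upstream and downstream, and an overlap needed 1 bp. Motifs were searched on both strands. The motif for PU.1 was GAGGAAGT and for other ETS factors CCGGAAGT, and the short motif GGAAGT lies within both. The others were TGTGGT for RUNX, TTGCNNAA for CEBP, TGANTCA for AP-1, AGGTCA for nuclear receptors and CACGTG for the E-box. Sequence came from the RefSeq GRCm38.p6 assembly and promoter table. Stretches that overlap exons of coding genes were not printed, which left out the Spi1 promoter summit. The scripts were tested on simulated intervals and sequences before use (Python 3.11.15, pandas 2.3.3, SciPy 1.17.1, pysam 0.24.0).

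All members are named. Neighbours are named where they hold the strongest flank peak or share a promoter, and of other lists the exceptions where 5 or fewer, otherwise a few of the first. The other genes named from longer lists were chosen after their values were seen. The members and lists were chosen with earlier results of these data known. With 1 Active Motif library and 2 Cell Signaling libraries, no test between groups was made. The alternatives were other promoter windows and starts, smaller flanks, a stricter q-value, equal numbers of peaks, and other motif windows.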

Additional observations from a re-analysis of the deposited data

How the results depend on the processing

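No paired analysis was possible because the inputs had no list of their own and no result came from a test. There were 194 alternative values for 83 results. Of these, 171 stayed within 1.5 times the reported count, within its interval or, for a percentile, within 10 points. The remaining 23 moved, and changes of order between genes were not scored. Some of the 171 could not move, since 36364 peaks in each list left the Active Motif list whole. The 171 is therefore not a measure of stability. Members with a promoter peak in all 3 libraries, 8 as reported, numbered 7 or 8 under each alternative. With annotated 5′ ends only, Spi1 was counted at another place than its coding start. At q at or below 1e-05 the Ets1 peak of replicate 2 was lost, leaving 8 there. At that q, peaks of replicate 1 in the members' windows numbered 108, as they did with 36364 peaks in each list, because fewer peaks entered. Replicate 2 peaks with a replicate 1 partner then rose from 65.9% to 75%. Equal lists raised the share of shared regions with an Active Motif peak to 72.9%. Asking for an overlap of 50% of both peaks lowered the shares to 32.3% and 40% between the replicates, 17.6% for Active Motif peaks in shared regions and 22.1% for the converse. Median peak widths were 341, 267 and 629 bp over the whole lists. In the 8.93 kb region at the inner Elf1 starts, 7, 5 and 1 peaks were called. Whether such splitting of peaks caused the lower shares was not tested. With 1 replicate in place of regions shared by both, stretches away from the promoters numbered 125 to 157, against 77. Summit windows with GGAAGT fell to 8.38% at 100 bp and rose to 32.3% at 400 bp, by construction. The other 11 values that moved, of 105, concerned the longer ETS sites in the summits of other libraries, the Elf4 percentile by fold, and the B-cell and dendritic cell lists, where 500 bp either side of a start left 1 of the dendritic cell genes marked in all 3 libraries. Read depth was not used, so weak or absent peaks such as those of Ets1, Spib and Spdef cannot be told from signal below the threshold of a library.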
